A study of Homo sapiens and Mus musculus with 22 samples.

Results

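BIX-01294 (BIX), a small molecule that blocks histone H3 lysine 9 methylation, was compared with mock treatment in U2OS cells that carried an unspecified vector. U2OS is a human osteosarcoma line. The comparison holds 2 of the 22 samples of the series, 1 of cells given 10 µM BIX for 12 h and 1 labelled mock, and both have the genotype label Vector. Each is a single FPKM value per gene (fragments mapped to a gene, scaled to the transcript's length and to the library's mapped fragments) that stands for 2 replicates by its description, and the sources used here do not give how these were combined. Nor do they give the agent of the mock treatment, and the treatment note of both samples says that the cells received BIX, so mock means the sample's label. The series also holds U2OS cells with an ATG5 knockdown, SETDB1 knockouts and L929 mouse cells, and a chromatin part that was not analysed here. The knockdown cells, under the same labels of mock and BIX and with 1 value each, serve below as a second measurement of the treatment. No test was possible with 1 value a side, so "higher" and "lower" compare 2 values and carry no p-value.

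Genes were taken when at least 1 of the 2 values reached an FPKM of 1, which 12366 of 21749 genes did, while 9383 stayed under 1 in both. Among those nearest to the limit, LOC101927482 entered at 0.0363 FPKM under mock treatment and 1 under BIX, and ZNF846 at 1 and 0.359, both just over 1. IGFL1 stayed out at 0.999 and 0.514, and DEFB124 at 0.999 and 0. Differences are of log2(FPKM + 1), BIX minus mock, which understates those of weakly expressed genes, and genes were counted when they were at least 2-fold apart on that scale. Where a pair of FPKM values follows a gene, mock comes first and BIX second, and a single signed number in parentheses is the log2 difference. In bulk RNA, a smaller share of cells that express a gene and less RNA per cell cannot be told apart.

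Methylation of histone H3 at lysine 9 marks silent chromatin. EHMT1 (GLP) and EHMT2 (G9a) work as a pair and place the mono- and dimethyl marks, while SUV39H1, SUV39H2 and SETDB1 place the trimethyl mark. BIX was described as an inhibitor of EHMT1 and EHMT2 and is also known to induce autophagy in cultured cells. The integrated stress response, to which several of the genes below belong, is a programme in which kinases that phosphorylate the translation factor eIF2 slow protein synthesis and raise the translation of the transcription factor ATF4.

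The bases just upstream of 7 genes are shown because these genes stand for the groups that the values below turn on. They were picked after their values were seen, and only where a known motif of the group was found. NFKB1, MCM6 and E2F1 also held the motif searched and are not printed, while DDIT3, FOS, ATF3 and MAP1LC3B, searched for the cyclic AMP response element, held 0 matches. Each run is the 250 bases before the RefSeq transcription start on GRCh38.p14, read 5′ to 3′ on the gene's strand, with matches to 1 motif in capitals. MT2A and MT1X are metallothioneins, searched for the core of the metal response element, TGCGCNC or TGCACNC, on both strands.
MT2A: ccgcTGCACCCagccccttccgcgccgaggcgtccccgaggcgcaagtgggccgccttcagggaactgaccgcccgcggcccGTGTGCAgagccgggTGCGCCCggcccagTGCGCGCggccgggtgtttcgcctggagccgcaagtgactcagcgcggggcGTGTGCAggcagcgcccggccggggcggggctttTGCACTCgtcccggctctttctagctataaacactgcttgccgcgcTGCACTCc
MT1X: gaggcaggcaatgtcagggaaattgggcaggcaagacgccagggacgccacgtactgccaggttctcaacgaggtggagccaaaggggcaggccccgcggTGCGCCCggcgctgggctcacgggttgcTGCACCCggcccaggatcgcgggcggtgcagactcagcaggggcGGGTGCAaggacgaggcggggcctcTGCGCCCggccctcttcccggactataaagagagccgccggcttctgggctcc
The MT2A run lies at chr16:56608334-56608583 with 7 matches and the MT1X run at chr16:56682220-56682469 with 4, both on the plus strand. A match was found in 24.7% of the upstream runs of 27305 promoters in the RefSeq table, at least 4 matches in 0.366% and at least 7 in 0.033%. PPP1R15A, a stress response gene, and DUSP1, a MAP kinase phosphatase, were searched for the cyclic AMP response element TGACGTCA.
PPP1R15A: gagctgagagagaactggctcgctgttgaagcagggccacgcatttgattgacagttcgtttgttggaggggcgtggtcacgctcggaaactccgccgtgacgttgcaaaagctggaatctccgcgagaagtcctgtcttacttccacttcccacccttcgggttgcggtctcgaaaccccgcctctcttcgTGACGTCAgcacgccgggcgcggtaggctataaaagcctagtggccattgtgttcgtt
DUSP1: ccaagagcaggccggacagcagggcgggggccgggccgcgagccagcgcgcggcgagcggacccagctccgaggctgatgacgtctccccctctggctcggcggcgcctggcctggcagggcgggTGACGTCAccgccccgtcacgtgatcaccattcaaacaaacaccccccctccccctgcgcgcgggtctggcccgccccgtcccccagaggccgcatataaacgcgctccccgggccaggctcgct
These runs lie at chr19:48872171-48872420 on the plus strand and at chr5:172771196-172771445 on the minus strand, and each holds 1 match, as 1.77% of all upstream runs do. The early transcription factor EGR1 was searched for the serum response element, and the chemokine gene CXCL8 for the NF-kappaB sites GGACTTTCC and GGAATTTCC on both strands.
EGR1: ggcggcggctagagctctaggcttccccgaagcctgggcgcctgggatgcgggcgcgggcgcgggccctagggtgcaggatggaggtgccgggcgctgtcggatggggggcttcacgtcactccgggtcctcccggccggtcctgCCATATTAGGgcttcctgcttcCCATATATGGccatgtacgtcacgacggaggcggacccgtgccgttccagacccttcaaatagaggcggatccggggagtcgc
CXCL8: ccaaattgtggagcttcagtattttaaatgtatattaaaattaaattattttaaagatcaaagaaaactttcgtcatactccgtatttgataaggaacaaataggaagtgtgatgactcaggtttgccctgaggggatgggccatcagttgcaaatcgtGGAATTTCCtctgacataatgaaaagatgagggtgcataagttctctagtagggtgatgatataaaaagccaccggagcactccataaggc
The EGR1 run, at chr5:138465229-138465478 on the plus strand, has 2 matches, and at least 1 was found in 1.14% of upstream runs. The CXCL8 run, at chr4:73740319-73740568 on the plus strand, has 1, and 0.762% of upstream runs have one. For the genes that were lower, HSPA8, which encodes the constitutive HSC70 chaperone, was searched for paired heat shock units, GAANNTTC or TTCNNGAA.
HSPA8: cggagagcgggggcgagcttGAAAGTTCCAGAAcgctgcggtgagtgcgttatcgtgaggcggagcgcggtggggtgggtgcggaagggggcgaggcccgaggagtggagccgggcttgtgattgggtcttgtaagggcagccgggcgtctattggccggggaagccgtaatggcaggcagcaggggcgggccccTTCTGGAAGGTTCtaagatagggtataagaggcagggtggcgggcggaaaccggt
This run lies at chr11:123062137-123062386 on the minus strand and holds 4 matches that overlap in pairs, and 11.7% of upstream runs hold at least 1. A match describes the letters only and shows neither binding nor a cause. Shares of motifs over all genes higher or lower are not given, since the table held a promoter for 567 of 738 higher and 387 of 505 lower genes with a single symbol, under 80% of each, which makes such a check void.

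Of the 12366 genes compared, 782 were at least 2-fold higher with BIX (6.32%) and 532 at least 2-fold lower (4.3%), and 11052 lay within 2-fold. Percentages of list members given below are to be set beside these shares of all genes. The larger differences were mostly on the higher side: 103 genes were at least 4-fold higher and 13 at least 4-fold lower, and 16 were at least 8-fold higher against 0 that were as far lower. The median difference of all genes was 0.0021, and 50.1% of genes were above 0. The higher genes made up 59.5% of those 2-fold apart. This split depends on the pseudocount and on how the values are scaled. With 0.1 added in place of 1, 1023 genes were higher and 1072 lower, a higher share of 48.8%. The summed FPKM of all genes kept was 406074 in mock and 446102 with BIX, and scaling both columns to the same sum moved the median by -0.12 and gave 590 higher and 762 lower genes, a higher share of 43.6%. Scaling to the same upper quartile moved it by -0.16 and gave 555 and 846, a share of 39.6%. Each difference below would move down by about that amount, which brings higher genes closer to 0 and takes lower genes farther from it. Of 48 lists with a member compared, 12 had a median that changed sign under 1 or both scalings. They are the lists of amino acid genes, autophagy receptors, lysosome genes, sterol synthesis, ribosomal proteins, proteasome, respiratory chain, histone chaperones, germline genes, epithelial markers, housekeeping genes and ZNF genes.

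**Figure D1:**
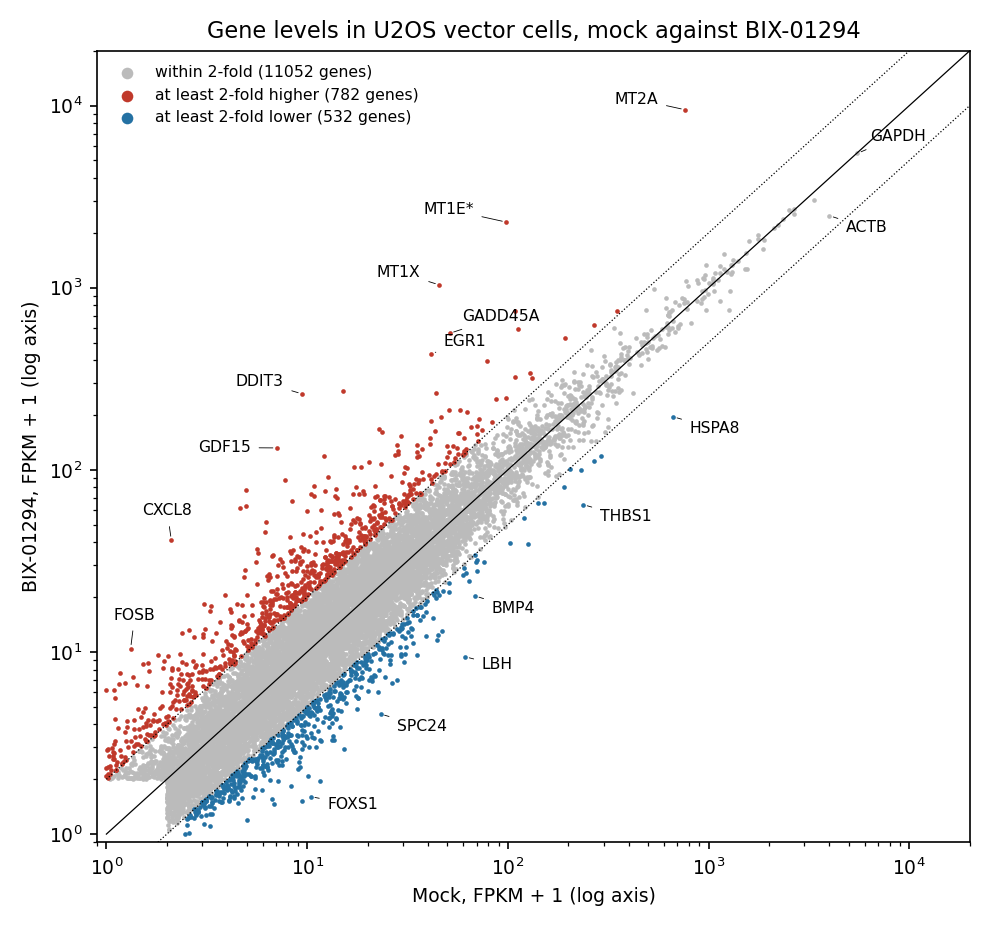
Each point is 1 of 12366 genes, with FPKM + 1 in mock on the horizontal and with BIX on the vertical axis, both logarithmic. The dotted lines mark a 2-fold difference, red points are the 782 higher and blue points the 532 lower genes, and an asterisk marks a locus that joins several symbols; the farthest points lie above the diagonal, MT2A among them.

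The share of genes 2-fold apart depended on their level. At a mean of 2 to 5 FPKM, 5.22% of 2050 genes were higher and 8.1% lower. At 20 to 50 FPKM, 8.3% of 2495 genes were higher and 1.96% lower, and at 50 to 100 FPKM the shares were 8.1% and 0.675%. The median difference was -0.15 in the first of these classes and 0.15 in the second. Of the 673 genes at a mean of 100 FPKM or more, 35 were higher (5.2%) and 9 lower (1.34%).

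**Figure D2:**
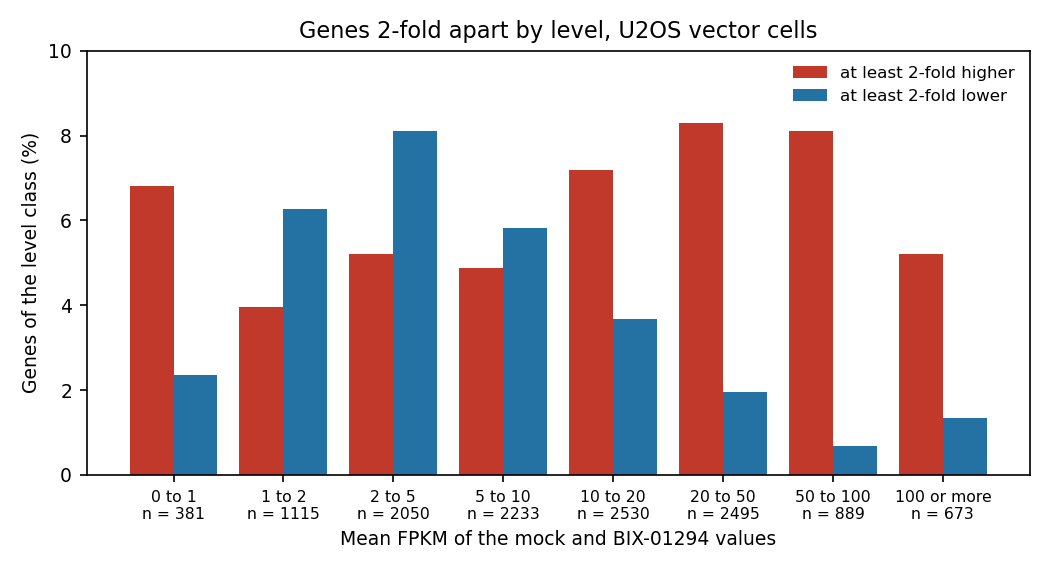
Bars give the percentage of genes at least 2-fold higher (red) and at least 2-fold lower (blue) in classes of the mean FPKM of the 2 values, with the number of genes under each class. Lower genes outnumber higher ones from 1 to 10 FPKM and are fewer from 10 FPKM upwards.

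No separate replicate values were held here for these cells, so a scale for differences between libraries was taken from mock-treated U2OS cells of the SETDB1 experiment, a separately normalized table with 2 libraries in each of 3 groups. Between such libraries 31, 20 and 20 genes were 2-fold apart, which is 0.25%, 0.161% and 0.161%, against 10.6% between BIX and mock. Of the 1314 genes 2-fold apart with BIX, 1259 were found in that table. For 1258 of them the difference with BIX exceeded the largest of the 3 same-group differences. That count was largely fixed by choosing genes 2-fold apart, since at most 0.25% of genes were that far apart between same-group libraries. It therefore gives no support to the calls. This scale holds for those libraries, and the spread of the vector values themselves was not tested.

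The labelled cell type was checked against marker lists. Of 15 osteosarcoma and osteoblast markers 11 were compared, among them VIM at 964 FPKM under mock treatment and 751 under BIX, COL1A1 at 418 and 262, and RUNX2, the osteoblast transcription factor, at 18.1 and 16.2. The homeobox gene MSX2 was higher (6.65 and 14.9), though within 2-fold after either scaling, TNFRSF11B, the osteoprotegerin gene, was lower (6.57 and 2.51), and the bone phosphatase gene ALPL read 3.16 and 4.14. The 4 under 1 FPKM in both were COL1A2, DLX5, IBSP and SP7, of which SP7 (osterix) and IBSP are defining osteoblast genes. None of the 11 blood and endothelial markers reached an FPKM of 1. The simple epithelial keratins KRT8 and KRT18 were at 383 and 213 FPKM in mock and at 471 and 305 with BIX, while the epithelial surface marker EPCAM was at 2.48 and 2.79. Of 10 liver and neural markers 3 were compared, of which the synaptic vesicle gene SYP was higher (1.52 and 6.58) and SNAP25 and RBFOX3 read 10.1 and 5.66 and 2.11 and 0.917. Of the housekeeping genes, ACTB read 3995 and 2485, while GAPDH read 5503 and 5463.

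Of the enzymes that BIX is meant to block, EHMT1 was within 2-fold, at 10.4 FPKM under mock treatment and 10.1 under BIX. EHMT2 is listed only as a locus joined with ZBTB12, which was 2-fold lower, at 22.7 and 10.8 (-1.01). The values are of mRNA and say nothing about enzyme activity or about the mark. Of 24 H3K9 methyltransferases and partners 22 were compared, with a list median of -0.08. The EHMT2 locus was the only lower one (4.55%, near the 4.3% of all genes), and none was higher. The others nearest to the limit were SUV39H1 (17.5 and 9.74 FPKM), the repressor scaffold TRIM28 (95.8 and 62.2) and ZNF644, a zinc finger partner of the EHMT pair (12.9 and 20.9). SETDB1 stood at 10.0 and 10.9 and SUV39H2 at 12.4 and 11.1. Among enzymes that remove H3K9 methylation, 11 of 14 were compared, 2 were higher (18.2%, against 6.32% of all genes) and 0 lower. KDM7A, a demethylase of the mono- and dimethyl marks, was at 1.3 and 6.09 FPKM, and JMJD1C, a jumonji-domain protein of the KDM3 family, at 9.89 and 29.2. Its relative KDM3A, an H3K9 demethylase, read 10.5 and 19.3. KDM4B, which acts on the trimethyl mark, had the lowest difference of the list, 7.11 and 4.02.

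The integrated stress response list had 12 higher (46.2%) and 1 lower gene (3.85%) among 26 compared of 28, with a median of 0.60. DDIT3 encodes CHOP, a transcription factor linked to cell death under stress, and had the largest difference of all genes at 5 FPKM or more, at 8.45 FPKM under mock treatment and 260.1 under BIX (4.79). GDF15, a secreted stress cytokine, was at 6.08 and 131 FPKM (4.22). PPP1R15A, which encodes the phosphatase subunit GADD34 that reverses eIF2 phosphorylation, was at 14.1 and 268 (4.16). The transcription factor genes ATF3, at 3.63 and 60.8, and ATF4, at 268 and 623, were higher too. TRIB3, a pseudokinase induced by CHOP, read 5.78 and 33, and CEBPG, a dimer partner of ATF4, 17.1 and 52.7. EIF2AK3, the gene of the eIF2 kinase PERK, stood at 5.52 and 13.6. Against these, DDIT4, an inhibitor of mTORC1 signalling, was lower (23.4 and 11 FPKM), and CHAC1, a glutathione-degrading enzyme and CHOP-pathway target, read 5.04 and 2.24.

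Genes of amino acid supply, which ATF4 is known to induce, were less often 2-fold higher than that list, 12.5% against 46.2%. Of 26 listed, 24 were compared, 3 were higher and 0 lower, against 6.32% higher and 4.3% lower of all genes. The median of 0.06 changed sign to -0.07 and -0.11 under the 2 scalings. The 3 are transporters: SLC3A2, the heavy chain shared by several amino acid exchangers, was at 77.5 and 394 FPKM, SLC38A1 at 7.87 and 27.8 and the cationic amino acid transporter SLC7A1 at 12.3 and 26.8. ASNS, asparagine synthetase, was at 34.5 and 35.5, and PSAT1, of serine synthesis, at 16.4 and 12.9. Of 20 cytosolic aminoacyl-tRNA synthetases, the enzymes that charge tRNAs, SARS (82.8 and 183 FPKM) and YARS (42 and 91.6) were higher and none was lower, with a median of 0.29, and neither was 2-fold higher after either scaling.

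Chaperone lists were near 0 in the median and held single genes that were far apart. Of 31 endoplasmic reticulum (ER) chaperone and unfolded protein response genes 29 were compared, 1 was higher and 2 lower, with a median of -0.03. These are shares of 3.45% and 6.9%, against 6.32% and 4.3% of all genes. SDF2L1, a component of ER chaperone complexes, was at 29.4 FPKM under mock treatment and 7.86 under BIX, and SEL1L, the adaptor of an ER-associated degradation ligase, at 18.4 and 7.95. HSPA5, the main ER chaperone BiP, read 189.6 and 114, and XBP1, a transcription factor of the unfolded protein response, 38.5 and 39.8. The CHOP gene was higher while the median of the ER chaperone list was near 0. ERO1LB, an ER oxidase, was the higher member (1.15 and 3.33), though within 2-fold after either scaling. Of 28 cytosolic heat shock genes 22 were compared, 1 was higher and 1 lower, 4.55% each way. HSPB8, a small heat shock protein that works with the co-chaperone BAG3, was at 27 and 135 FPKM. HSPA8 was at 664 and 195 FPKM (-1.77), the third largest loss in FPKM of any gene. AHSA1, an activator of the HSP90 ATPase, read 103 and 51.7 and was 2-fold lower after either scaling, and HSP90AA1 367 and 275.

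**Figure D3:**
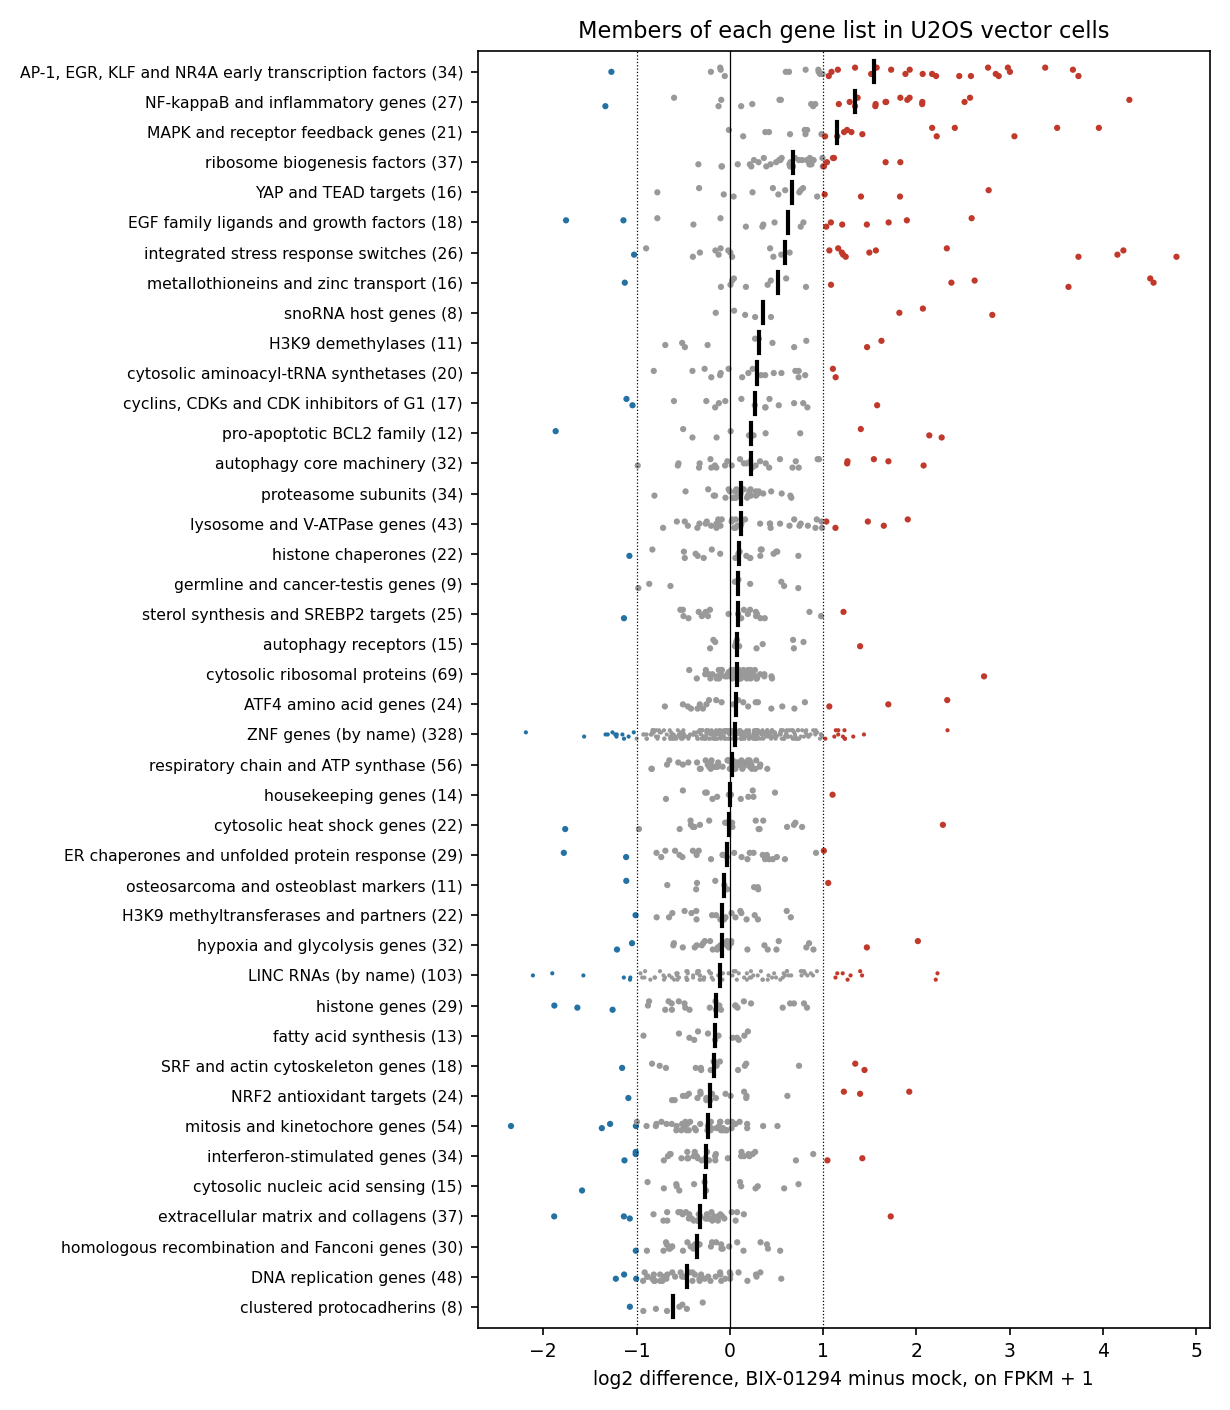
Each row is one of the gene lists with at least 8 members compared (number in parentheses). The list of p53 targets also has that many and is neither drawn nor reported here. Each point is 1 member's log2 difference of FPKM + 1, and the black bar is the list's median. Red and blue points are at least 2-fold higher and lower; medians run from 1.54 for the early transcription factors to -0.61 for clustered protocadherins.

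Early response transcription factors had the highest list median, 1.54, with 22 higher (64.7%) and 1 lower (2.94%) among 34 compared of 37. FOS and FOSB, which pair with JUN proteins in the AP-1 complex, were at 3.96 and 62.5 and at 0.32 and 9.42 FPKM. JUN read 61.3 and 206, and JUNB 22.7 and 161. These AP-1 members were all higher, as was FOSL1 at 43 and 263. EGR1, a zinc finger factor, was at 40.6 and 432 FPKM (3.38). MAFF, a small MAF protein, read 7.45 and 66.7. MYC, the growth-promoting transcription factor, was at 21.8 and 167 (2.88), and the orphan receptor NR4A1 at 11.7 and 90.7. KLF6 and KLF10, Krüppel-like factors, were at 8.56 and 43.3 and at 40.2 and 184. HES1, a Notch-pathway repressor, was the lower member, at 37 and 14.7.

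Inhibitors that act on MAP kinase and receptor signals had a median of 1.15, with 12 higher (57.1%) and 0 lower among 21 compared of 26. DUSP2, DUSP5 and DUSP1 are phosphatases that switch MAP kinases off. They were at 6.77 and 87.5 FPKM, 5.26 and 50.9, and 22.3 and 107, in mock and BIX respectively. GEM, a small GTP-binding protein, was at 3.98 and 76.3 (3.96). SPRY2, an inhibitor of receptor tyrosine kinase signals, read 3.87 and 24.9, and RND3, a small GTP-binding protein, 27.2 and 126. Of the ligand list, 18 of 21 were compared, 7 were higher (38.9%) and 2 lower (11.1%). INHBA, the activin A subunit, was at 16.1 and 102 FPKM, and HBEGF, an EGF receptor ligand, at 8.56 and 34.6. The pair of bone morphogenetic proteins in the list differed in direction, BMP2 at 5.1 and 18.9 and BMP4 at 67.6 and 19.3. VEGFA, an angiogenic factor, read 19.3 and 55.2.

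The NF-kappaB and inflammatory list had 16 higher (59.3%) and 1 lower gene (3.7%) among 27 compared of 37, with a median of 1.34. CXCL8, the neutrophil chemokine interleukin-8, was at 1.11 FPKM under mock treatment and 40.0 under BIX (4.28). The NF-kappaB subunit genes NFKB1 and RELB were at 8.69 and 35.8 and at 5.44 and 25.9. TNFAIP3 (A20), a ubiquitin-editing inhibitor of the pathway, read 2.07 and 17.3, so both subunits and an inhibitor were higher. Cytokine genes were among the higher members: IL24 at 0.0858 and 5.21, CSF2 at 4.62 and 22.5, and LIF at 20.8 and 80.4. TNFAIP6, a hyaluronan-binding protein, was lower, at 5.03 and 1.39. By contrast, the interferon-stimulated list had 2 higher (5.88%) and 3 lower genes (8.82%) among 34 compared of 50. The shares over all genes were 6.32% and 4.3%, so the higher share was near that of all genes. The list's median was -0.25, and 15 of its members stayed under 1 FPKM. IFIT1, an RNA-binding interferon effector, was at 2.15 and 0.566 FPKM, IFI44 at 16.1 and 7.52 and HERC6, a ubiquitin ligase of the HERC family, at 2.9 and 0.781. ISG15 itself read 16.4 and 12.6. The higher members were IRF1 (2.56 and 6.36), within 2-fold after either scaling, and the IFI16 locus joined with PYHIN1 (14.6 and 40.8). In the nucleic acid sensing list, the locus of the nuclease TREX1, joined with ATRIP, was at 12.3 and 3.45 FPKM (-1.58). MB21D1, the cGAS gene, read 4.19 and 4.6, and TMEM173, the STING gene, 2.28 and 1.21.

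Metallothioneins, small cysteine-rich proteins that bind zinc and other metals, included the 3 entries with the largest gains in FPKM. MT2A was at 764 FPKM under mock treatment and 9480.3 under BIX and was the most abundant gene there, above GAPDH. The MT1E locus, joined with MT1JP, was at 97.3 and 2290.4 (4.54), and MT1X at 44.6 and 1035 (4.51). MT1G was listed at 0 in mock and at 5.17 with BIX. These genes are near-identical copies, so the split of reads among them is uncertain, while their direction was shared. The metallothionein and zinc transport list held 0.278% of the summed FPKM of all genes kept in mock and 2.95% with BIX. SLC30A1, the zinc exporter of the plasma membrane, was at 7.2 and 41.6 FPKM. SLC30A9, a mitochondrial zinc transporter, was lower (20.2 and 8.73). Over the list of 22, 16 were compared, 6 were higher (37.5%) and 1 lower (6.25%). Antioxidant genes under NRF2 control had a list median of -0.22, with 8 above 0 and 16 below. Of 24 compared, 3 were higher (12.5%, against 6.32% of all genes) and 1 was lower (4.17%, against 4.3%). Heme oxygenase HMOX1 (15.3 and 60.9 FPKM) and OSGIN1 (7.46 and 18.7) were among the 3, and NFE2L2, the NRF2 gene, read 33.9 and 52.5.

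Autophagy is the delivery of cytoplasm to lysosomes in double-membraned vesicles. Of 37 core machinery genes 32 were compared, with a median of 0.23. Among these, 5 were higher (15.6%, against 6.32% of all genes) and 0 lower. MAP1LC3B, the LC3B protein of the vesicle membrane, was at 49.8 FPKM under mock treatment and 213 under BIX. ATG12, a ubiquitin-like conjugation protein, read 9.76 and 30.4, and ATG101, of the ULK1 kinase complex, 25.4 and 62.3. EPG5, a tether for fusion with lysosomes, was at 3.58 and 13.9, and TMEM41B, an ER lipid scramblase, at 13.5 and 33.6. Other core genes stayed within 2-fold: ULK1 at 15.7 and 15.4, BECN1 at 19.1 and 12.7, ATG5 at 11.3 and 12.3, and the fusion protein STX17 at 4.73 and 1.89, which had the lowest difference of the list and was 2-fold lower after either scaling. SQSTM1 (p62) was the only higher gene of 15 receptors compared (6.67%), at 64.2 and 171 FPKM.

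Of 47 lysosome and V-ATPase genes 43 were compared, 5 were higher (11.6%, against 6.32% of all genes) and 0 lower. After scaling to equal upper quartiles 3 were higher. The median of 0.12 turned to -0.02 and -0.06 under the 2 scalings. The higher genes were subunits of the proton pump, ATP6V1C1 (7.66 and 31.5 FPKM), ATP6V1B2 (20.4 and 58.7) and ATP6V0B (69.7 and 144), the cholesterol exporter NPC1 (6.06 and 21.2) and the sialidase NEU1 (8.66 and 20.2). Abundant lysosomal proteins lay close together in the 2 values, LAMP1 at 215 and 227 and the protease cathepsin D gene CTSD at 120.1 and 113. TFEB, a transcription factor of lysosome genes, read 6.16 and 10.2. In sterol synthesis, HMGCS1 was higher (14 and 33.8) and IDH1 lower (28.9 and 12.6) of 25 compared, 4% each way. Of 13 fatty acid synthesis genes none was 2-fold apart. After either scaling 1 of them was lower, SREBF1, a transcription factor of lipid synthesis (16.1 and 8).

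GADD45A, a growth arrest gene, was at 50.3 FPKM under mock treatment and 561 under BIX (3.45). CDKN1A, the p21 inhibitor of cyclin-dependent kinases, was at 107 and 322, and the death receptor gene TNFRSF10B at 29.2 and 94.7. Genes of the BCL2 family differed in both directions. The death-promoting BH3-only genes PMAIP1 (NOXA), BBC3 (PUMA) and HRK were higher, at 26.5 and 120.1, 14.4 and 39.8, and 0.622 and 6.83 FPKM. BMF, another BH3-only gene, was lower, at 6.14 and 0.957 (-1.87). On the survival side, the MCL1 locus, joined with an antisense gene, was at 56.6 and 213, while BCL2L1 read 75.5 and 117 and BCL2 1.25 and 2.47.

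**Figure D4:**
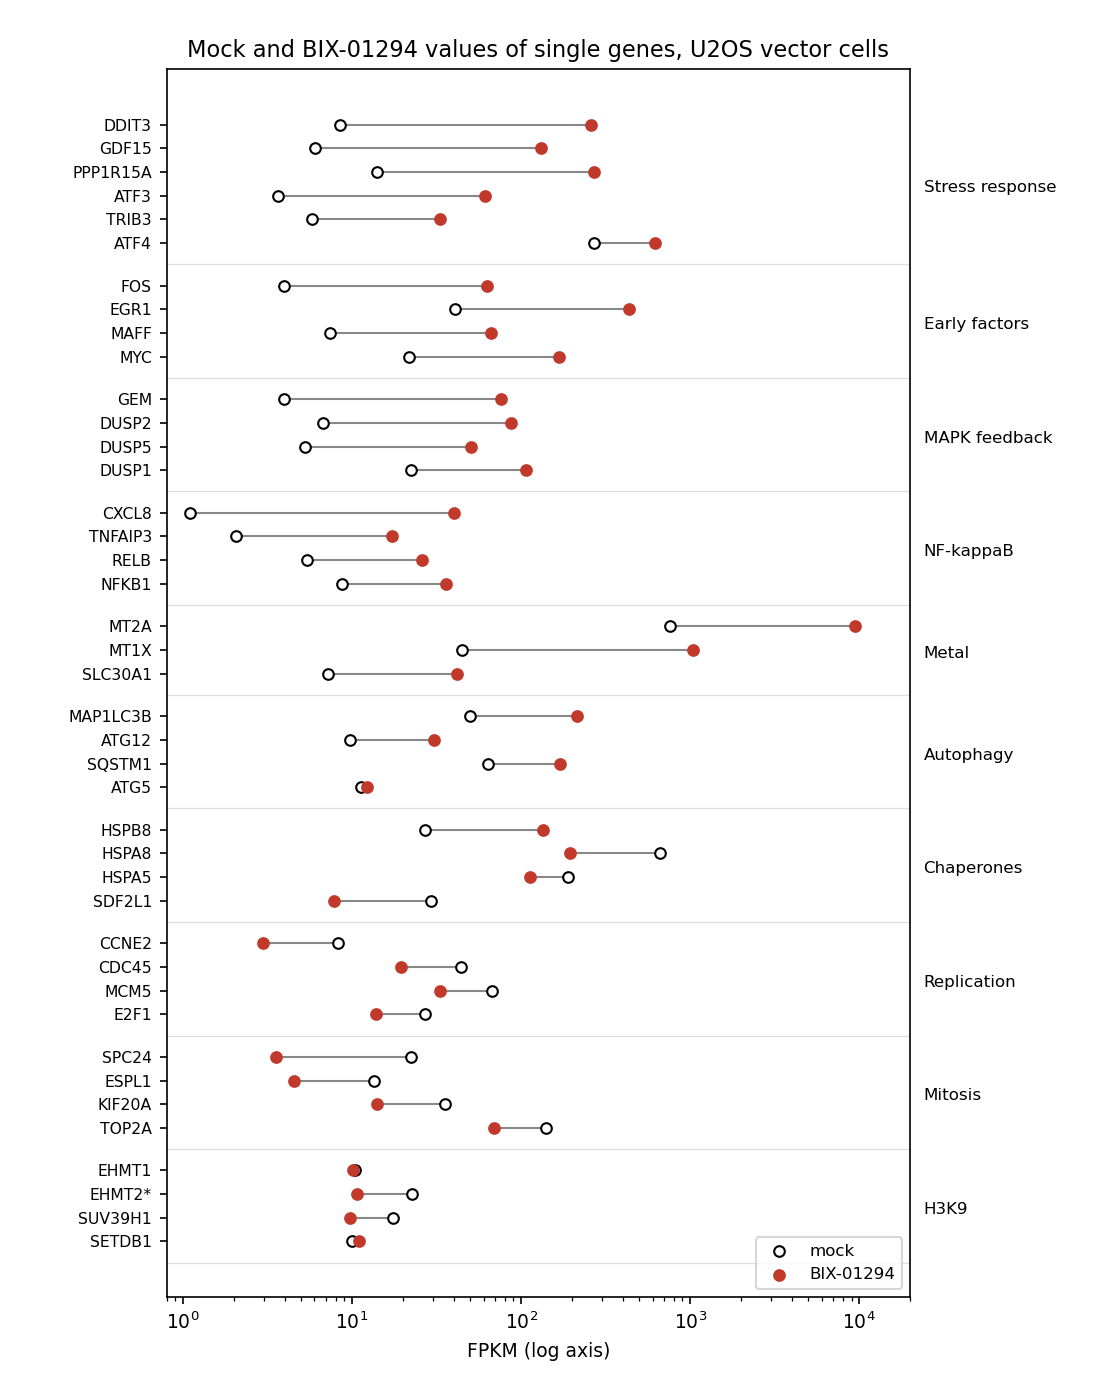
FPKM of single genes in mock (open circles) and with BIX (red circles) on a logarithmic axis, grouped by role, with 1 value for each circle. In the first 5 groups and for MAP1LC3B, ATG12 and SQSTM1 the BIX value lies to the right, in the replication and mitosis groups to the left, and the chaperones differ in direction; EHMT2* is the locus joined with ZBTB12.

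Ribosome biogenesis factors had a median of 0.68 and a range of -0.34 to 1.83, and 34 of 37 compared of 39 were above 0, against 50.1% of all genes. Of these, 6 were 2-fold higher (16.2%, against 6.32% of all genes) and 0 lower, and 2 were higher after either scaling. RRP12, of pre-ribosome export, was at 5.75 and 20.5 FPKM, and the locus of WDR43, a protein of early ribosomal RNA processing, joined with FAM179A, at 25.2 and 92. GAR1, of the guide RNA particles that modify ribosomal RNA, read 27.6 and 60.5, and GNL3 (nucleostemin) 40.9 and 83.2. Nucleolin, NCL, read 215 and 277. Host genes of small nucleolar RNAs were measured in 8 of 20 cases, of which 3 were higher: SNHG17 (9.43 and 72.3 FPKM), SNHG15 (12.6 and 56) and SNHG5 (13.7 and 50.8). The ribosomal proteins themselves lay close to 0, with a median of 0.07 over 69 genes that changed sign under the scalings. None of 34 proteasome and 56 respiratory chain genes was 2-fold apart, although both medians, 0.12 and 0.03, also changed sign and 2 respiratory chain genes were lower after scaling to equal upper quartiles.

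Lists of DNA replication, mitosis and recombination had medians below 0, and the list of G1 regulators had a median above 0. Of 50 DNA replication genes 48 were compared, 0 were higher, 3 were lower and 8 were above 0, with a median of -0.46. The lower share was 6.25%, against 4.3% of all genes, and 7 genes were lower after either scaling. CCNE2, a cyclin of S phase entry, was at 8.27 FPKM under mock treatment and 2.97 under BIX, CDC45, of the replicative helicase, at 44.2 and 19.6, and the helicase subunit MCM5 at 67.6 and 33.2. E2F1, a transcription factor of S phase genes, read 27.1 and 13.9. Of 54 mitosis and kinetochore genes 4 were lower, 0 higher and 8 above 0, with a median of -0.23. Their lower share was 7.41%, also above the 4.3% of all genes. The kinetochore gene SPC24 was at 22.2 and 3.56 FPKM (-2.35), ESPL1, the separase that cuts cohesin, at 13.4 and 4.56, and the mitotic kinesin KIF20A at 35.6 and 14.1. TOP2A, the DNA-untangling topoisomerase, read 139.8 and 69.6. Homologous recombination and Fanconi genes had a median of -0.35 with 6 of 30 above 0. In that list 1 entry was lower (3.33%), the locus of RAD54B, joined with FSBP, at 5.77 and 2.37 FPKM, against 4.3% of all genes, and BRCA2, a recombination mediator, read 2.92 and 1.4 FPKM. Of 17 G1 regulators compared 10 were above 0, with a median of 0.27, CDK6 read 22.7 and 41.2 and cyclin D2, CCND2, 28.7 and 50.3. CDKN1A was the only higher one (5.88%). CDKN2C, another inhibitor of cyclin-dependent kinases, was lower (30.3 and 13.5 FPKM), as was the pocket protein gene RBL2 (19.2 and 8.78), together 11.8%. A smaller share of dividing cells and a lower level per dividing cell cannot be told apart here.

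Histone genes were compared for 29 of 49, with a median of -0.15. Among these, 3 were lower (10.3%, against 4.3% of all genes) and 0 higher. Most replication-dependent histone mRNAs lack a poly(A) tail and the libraries were poly(A)-selected, so these values cover the tailed part of their transcripts, and near-identical copies share reads. HIST2H2BE, an H2B gene, was at 34.2 FPKM and 8.57, HIST1H2BJ at 28.4 and 8.48, and the locus of the variant H2AFX, joined with DPAGT1, at 267 and 111. The linker histone gene H1F0 read 338 and 600.4, and the replacement histone H3.3 gene H3F3A 328 and 342. ASF1B, a chaperone that hands over H3 and H4, was the lower member of 22 histone chaperones compared (32.7 and 15), a share of 4.55%.

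Of 48 matrix genes 37 were compared, of which 3 were lower (8.11%, against 4.3% of all genes), 1 was higher and 33 lay within 2-fold. The list's median was -0.32, with 5 above 0. The 3 lower genes were THBS1, the matrix glycoprotein thrombospondin-1, at 237 and 63.4 FPKM, LOXL2, a collagen cross-linking enzyme, at 69.2 and 30.9, and the collagen gene COL11A1 at 36 and 16.6. The matrix protease MMP3 was higher, 7.42 and 26.8, with a same-group library difference of up to 1.10 in the SETDB1 experiment. Of the actin genes, ACTB and ACTG1 had the largest losses in FPKM of any genes, ACTG1 at 1265 and 750.3. VCL, the adhesion protein vinculin, was lower (42.9 and 18.7), while CNN1, a calponin, and FHL2, a LIM-domain cofactor, were higher (4.98 and 15.3, 97.2 and 248). Targets of YAP, the Hippo-pathway coactivator, had a median of 0.67 with 4 of 16 higher (25%) and 0 lower. They were led by ANKRD1, a muscle ankyrin repeat protein, at 107 and 740.3 FPKM. LATS2, a kinase that inhibits YAP, read 9.28 and 26.2. The classical targets CYR61 and CTGF, which stand in the ligand and YAP groups, read 157 and 267 and 138 and 80.4.

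Gene groups often silent in somatic cells were looked at because H3K9 methylation covers many of them. Of 32 germline and cancer-testis genes 9 were compared and none was 2-fold apart, with a median of 0.09 that turned to -0.03 and -0.06 under the scalings, after which 1 was lower, PAGE5 (3.17 and 1.11 FPKM). PRAME, already abundant in mock, read 225 and 144 FPKM, and MAGEA1 48.9 and 73.6. Of 11 genes derived from endogenous retroviruses 3 were compared and none was 2-fold apart. All 8 clustered protocadherin loci compared were below 0, with a median of -0.61. The joined locus of PCDHB11, PCDHB12, PCDHB16, PCDHB5 and PCDHB7, cell adhesion genes of 1 cluster, was at 23 and 10.4 FPKM. Of 328 ZNF genes compared, a large class of zinc finger repressors, 12 were higher and 12 lower (9 and 18 after scaling to equal upper quartiles). That is 3.66% each way, below the 6.32% higher and 4.3% lower of all genes. Of 103 LINC RNAs compared 9 were higher (8.74%) and 6 lower (5.83%). ZNF697 was at 5.67 and 32.6 FPKM and ZNF76 at 7.36 and 0.836.

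A group of 16 genes was under 1 FPKM in mock and at 5 or more with BIX, of which 9 did the same in the knockdown cells. Beside FOSB, HRK, IL24 and MT1G they included EGR2, a relative of EGR1, at 0.231 and 5.77 FPKM, ADAMTS1, a matrix metalloprotease, at 0.594 and 5.48, and ALOXE3, an epidermal lipoxygenase, at 0.363 and 6.25. SLAMF7, an immune cell receptor, was at 0.429 and 5.59, and LCP1, a leukocyte actin-bundling protein, at 0.884 and 5.04. CFLAR-AS1 (0.61 and 7.74) is antisense to CFLAR, and since the sources used here do not give strandedness its reads cannot be told apart from those of its partner. RPLP0P2 (0.518 and 7.57), a ribosomal pseudogene, and PSG4 (0.799 and 8.61), of a family of close copies, are uncertain for the same kind of reason. In the other direction, 8 genes were at 5 FPKM or more in mock and under 1 with BIX, of which 1 did so in the knockdown cells. They included BMF, ZNF76, LINC00883 and the joined locus of HRCT1 and LINC00961. CPT2, a mitochondrial enzyme of fatty acid import, was at 5.53 and 0.989 FPKM. FOXS1, a forkhead factor, was at 9.44 and 0.605, and the endothelin gene EDN2 at 10.6 and 0.967.

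The other large lower differences belonged to genes with no common list. LBH, a transcriptional cofactor, had the largest of the genes at 5 FPKM or more, 60.3 FPKM under mock treatment and 8.4 under BIX (-2.70). HAS2, which makes hyaluronan, was at 9.11 and 1.1, and SOCS1, an inhibitor of cytokine signals, at 8.25 and 1.32. PRR16 was the gene with the next highest mock level among the 20 largest, at 43.2 and 10.7. EIF4G2, a translation initiation factor, was lower at a high level, 288 and 119. Among abundant genes that were higher and stand outside the groups above, ZFP36L1, an RNA-binding protein that promotes mRNA decay, was at 111 and 593 FPKM, and TNFRSF12A, the TWEAK receptor, at 191 and 530.1. All higher genes together held 2.87% of the summed FPKM in mock and 10.3% with BIX, and the lower genes 2.29% and 0.767%.

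Some of the genes lay next to each other in the RefSeq gene order, where 12138 of the genes compared could be placed. There were 13 runs of 3 or more neighbours that were all higher or all lower. The longest held 6 higher genes, B3GALNT2, LYST, NID1, GPR137B, ERO1LB and LGALS8. ERO1LB was at the limit and within 2-fold after either scaling, which breaks this run. LYST, a lysosomal trafficking regulator, was at 1.5 and 7.59 FPKM, NID1, a basement membrane protein, at 23.3 and 68.2, and LGALS8, a galectin, at 4.33 and 14.9. The next held the 4 metallothionein entries above. One run was lower, ACBD4, HEXIM1 and HEXIM2, in which HEXIM1, an inhibitor of the elongation kinase P-TEFb, was at 22.5 and 9.25. Overlapping neighbours can share reads, and no share for unordered genes was computed.

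In the ATG5 knockdown cells the same treatment gave 989 higher genes (7.97%) and 459 lower genes (3.7%) of 12403 compared. Mock and BIX values there come from other samples than those of the vector cells. Of the 782 genes higher in vector cells, 647 were also 2-fold higher in the knockdown cells (82.7%) and 779 were above 0. Of the 532 lower, 340 were also 2-fold lower (63.9%) and 529 below 0. No gene was 2-fold apart in opposite directions. Seen from the knockdown lists, 65.4% of the higher and 74.1% of the lower genes were 2-fold apart the same way in vector cells. The median difference of the higher genes was 1.29 in vector and 1.38 in knockdown cells, and of the lower genes -1.20 and -1.10. The gap between the populations was wide for some early response genes, though not tested: FOS read 4.06 FPKM under mock treatment and 209.8 under BIX in the knockdown cells, a difference of 5.38 against 3.68 in vector cells, and EGR1 36.2 and 739.9, 4.32 against 3.38. Some stress response and metal genes were closer, with DDIT3 at 4.99 against 4.79, MT2A at 3.64 against 3.63 and GDF15 at 3.89 against 4.22.

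**Figure D5:**
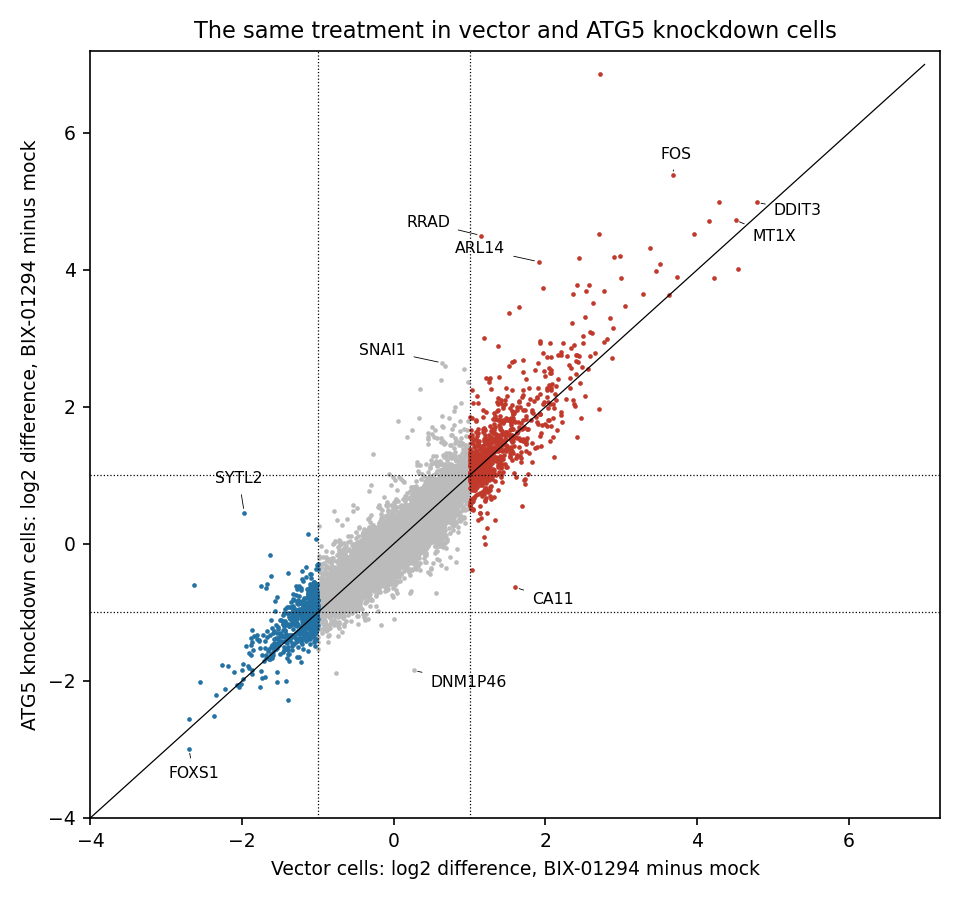
Log2 difference of FPKM + 1, BIX minus mock, in vector cells (horizontal) and ATG5 knockdown cells (vertical) for the 12366 genes. Red and blue points are those 2-fold higher and lower in vector cells and dotted lines mark 2-fold; the upper left and lower right corners beyond the dotted lines are empty.

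A few genes had different values in the 2 cell populations, chosen as those with the largest gap between the differences, and with 1 value a side the gaps were not tested. SYTL2, a vesicle transport protein, was at 25.4 and 5.74 FPKM in vector cells and at 8.55 and 12.1 in knockdown cells. RRAD, a GTP-binding relative of GEM, was at 0.373 and 2.05 in vector and at 0.332 and 29.2 in knockdown cells. SNAI1, a repressor of epithelial genes, was at 10.9 and 17.5 and at 8.59 and 58.9, and ARL14, a small GTPase, at 1.13 and 7.01 and at 2.02 and 51.6. HIST1H2BJ, lower in vector cells, read 33.6 and 29.8 in knockdown cells.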

How the data were processed

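RNA of U2OS vector cells, mock or BIX, was analysed with ATG5 knockdown and SETDB1-experiment samples for reference. The deposited values are FPKM per gene made by the authors, 1 pooled value per vector or knockdown group. Per the labels' protocols, libraries were poly(A)-selected, TruSeq and paired-end. Per the submitters' processing notes, FastQC, cutadapt, TopHat2, Cufflinks and hg19 were used. The sources used here do not give their versions, the gene annotation or strandedness. Read depth is unknown, so no counting interval is given.

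Of 25848 entries, 2088 repeats of a symbol were dropped (the highest mean was kept) and 2011 genes or loci of short RNAs were left out, while 1155 loci joining several symbols stayed as 1 entry each. Differences are log2(FPKM + 1) of the deposited values, computed with Python 3.11.15, numpy 2.4.6 and pandas 2.3.3, with a 2-fold limit and a minimum FPKM of 1. The members and the 47 gene lists were chosen with earlier results of these data known. Named genes are the 20 largest differences in each direction at 5 FPKM or more, up to 6 per list, the study's targets and BCL2 family, the 10 largest gaps to the knockdown, the most abundant genes and largest gains and losses, and on or off genes; others named were chosen after their values were seen. Promoters come from RefSeq, GRCh38.p14. Alternatives covered pseudocount, filter, limit, scaling, repeats, joined loci and short RNAs. Some genes of these rules and lists are not reported here.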

Additional observations from a re-analysis of the deposited data

Results flagged for a closer look

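CA11, a carbonic anhydrase-related gene, had opposite signs in the 2 cell populations: its log2 difference of BIX against mock was 1.60 in vector cells, at 1.12 FPKM in mock and 5.43 with BIX, and -0.63 in ATG5 knockdown cells, at 1.35 and 0.517. With 1 value a group the difference between the populations was not tested.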

How the results depend on the processing

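The counts of 782 higher and 532 lower genes moved most with the limit and the pseudocount. A 1.5-fold limit gave 2083 higher and 1878 lower genes and a 3-fold limit 202 and 70. A pseudocount of 0.1 gave 1023 higher and 1072 lower genes, and equal upper quartiles gave 555 and 846. Of the lists, 10 had a median of 0.5 or more and 2 a median of -0.5 or less. Equal upper quartiles made these 5 and 4, while the second number was 0 with no filter on low values and 1 with a minimum of 5 FPKM, where the median of the liver and neural markers turned to 0.43, as fewer genes were left. No other list with a median at least 0.5 from 0 changed sign under the alternatives run. Single genes were checked only where they were named for the largest differences in each direction or the largest within a list. Of these, 154 were 2-fold apart. After scaling to equal sums 13 of them were within 2-fold, and after scaling to equal upper quartiles 14. None changed sign under any alternative. Genes named only by the other rules, or only after their values were seen, were not part of this check. No paired analysis was possible because each group has 1 pooled value and the values carry no replicate numbers. Depth is unknown, so low values cannot be given an error.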
